A study of Mus musculus with 12 samples.

Results

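The genes described here encode the enzymes of the mitochondrial citric acid (TCA) cycle, the steps that bring pyruvate into it, and the enzymes and carriers that refill it (anaplerosis) or pass its intermediates across the mitochondrial membrane. The list holds 30 genes, named by function; it was drawn up with earlier results of these data known. For each gene the probe set was used that the array's annotation gives that single symbol and that had the highest mean over the 12 arrays. This gave a value for 29 of the 30 genes, among 22180 genes with such a probe set. Mpc2, the partner of Mpc1 in the mitochondrial pyruvate carrier, had none and was not analysed here. All 29 measured genes lay above the filter on dim genes, and they are 29 of the 17749 genes tested.

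The study used mouse acute myeloid leukemia driven by MLL-AF9, a fusion oncogene, with or without AMP-activated protein kinase (AMPK), the kinase that senses a low cellular energy charge. Irradiated recipients (10 Gy) received 50000 marrow stem and progenitor cells that expressed MLL-AF9 and were either AMPKfl/fl, called wild type here, or AMPKΔ/Δ, called knockout. At leukemia onset, 5000 GFP+ cells, called whole leukemia, or 5000 L-GMP were sorted from marrow. L-GMP are lineage-negative GFP+ cells positive for c-kit, CD34 and the Fc receptors CD16/CD32, and the series' design text equates them with leukemia-initiating cells. The 4 groups are therefore wild-type whole leukemia, knockout whole leukemia, wild-type L-GMP and knockout L-GMP, with 3 arrays each, all from the C57BL/6J strain. All groups share the oncogene, the irradiation and amplification of RNA from few cells. The labels do not say which AMPK subunit was deleted, how or when it was deleted, how old the animals were, or whether the 3 arrays of a group came from 3 animals, so the spread between arrays may be partly technical. The values are log2 intensities of single probe sets, and levels are compared only within a gene.

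As background, pyruvate enters the mitochondrion through the Mpc1 and Mpc2 carrier and is turned into acetyl-CoA by the pyruvate dehydrogenase complex. Citrate synthase, aconitase, isocitrate dehydrogenase, the 2-oxoglutarate dehydrogenase complex, succinyl-CoA synthetase, succinate dehydrogenase, fumarase and malate dehydrogenase then run the cycle, which delivers electrons to the respiratory chain. Because intermediates leave the cycle for biosynthesis, pyruvate carboxylase, glutamate dehydrogenase, the aspartate transaminases and malic enzyme adjust its pool. AMPK is known for switching cells towards fuel oxidation when ATP is short.

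Promoter windows from 250 bases before to 50 bases after the start site (RefSeq, GRCm38.p6) were found for 26 of the 29 genes, 33 windows in all. Those of Idh3g, Idh3b, Mpc1 and Mdh2 are shown as examples that carry a marked match and whose genotype differences are described below. The windows of Idh2, Mdh1 and Sucla2, whose arrays were also separated between genotypes, held none of the ETS, NRF1, ERR, E-box or CRE letters. Glud1, Pdpr and Pcx were separated as well, have such matches and are not shown. A link between matches and genotype differences was not tested. They lie at chrX:73786848-73787147 on the minus strand for Idh3g, at chr2:130284402-130284701 on the minus strand for Idh3b, at chr17:8283537-8283836 on the plus strand for Mpc1 (the first of its windows), and at chr5:135778399-135778698 on the plus strand for Mdh2. Each is written from 5′ to 3′ along the gene's strand. Capitals mark the ETS letters CCGGAAG, or their reverse complement, in the first 3 genes, and the CRE letters TGACGTCA in Mdh2.
Idh3g: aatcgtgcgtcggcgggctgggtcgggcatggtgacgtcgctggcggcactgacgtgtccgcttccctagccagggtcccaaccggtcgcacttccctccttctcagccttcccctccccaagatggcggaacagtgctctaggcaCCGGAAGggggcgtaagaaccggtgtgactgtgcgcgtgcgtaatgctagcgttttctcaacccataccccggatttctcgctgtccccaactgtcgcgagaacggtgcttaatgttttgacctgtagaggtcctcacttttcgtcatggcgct
Idh3b: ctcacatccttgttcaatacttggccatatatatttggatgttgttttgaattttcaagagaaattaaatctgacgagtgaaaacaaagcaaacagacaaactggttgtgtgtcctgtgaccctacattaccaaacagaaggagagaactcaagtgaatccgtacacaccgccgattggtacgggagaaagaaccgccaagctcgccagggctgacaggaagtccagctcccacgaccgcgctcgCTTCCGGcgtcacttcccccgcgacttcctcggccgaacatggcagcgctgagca
Mpc1: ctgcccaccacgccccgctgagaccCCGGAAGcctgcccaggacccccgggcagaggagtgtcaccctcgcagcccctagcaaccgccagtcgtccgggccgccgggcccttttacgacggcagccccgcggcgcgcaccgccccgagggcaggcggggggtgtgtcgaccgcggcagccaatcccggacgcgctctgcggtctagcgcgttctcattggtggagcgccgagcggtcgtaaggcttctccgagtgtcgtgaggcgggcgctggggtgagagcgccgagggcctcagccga
Mdh2: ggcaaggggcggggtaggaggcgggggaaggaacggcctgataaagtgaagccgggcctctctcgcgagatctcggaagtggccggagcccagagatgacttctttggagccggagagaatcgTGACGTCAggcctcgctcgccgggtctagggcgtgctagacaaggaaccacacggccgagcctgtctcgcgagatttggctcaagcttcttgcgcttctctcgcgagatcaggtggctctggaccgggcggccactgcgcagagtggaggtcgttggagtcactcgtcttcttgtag
The ETS match begins at -104 from the start site in Idh3g, at -5 in Idh3b and at -225 in Mpc1. Searched on both strands, CCGGAAG was present in 5 of the 33 member windows, one each in Dlst, Glud1, Idh3b, Idh3g and Mpc1, against 8.91% of all 32544 windows. TGACGTCA was present in 5 member windows, of Mdh2, Ogdh and Pdpr, against 1.8% of all windows; several windows of one gene share sequence. The NRF1 letters GCATGCGC occurred in 3 member windows (2.73% of all windows), the ERR letters AAGGTCA in 2 (4.71%) and the E-box CACGTG in 6 (7.17%). CCAAT was found in 22 member windows against 37.4% of all windows, and the GC box GGGCGG in 23 against 35.9%. The median GC content was 61% in member windows and 53% in all windows. The part of base composition in these shares was not tested. The matches describe the sequence, and no binding was measured.

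Prkaa1, which encodes a catalytic subunit of AMPK, served as a check of the genotype labels. Its mean log2 intensity was 8.15 in wild-type L-GMP and 8.24 in wild-type whole leukemia, and the knockout differed by -1.15 ± 0.24 (SE) in L-GMP and by -0.98 ± 0.24 in whole leukemia. The arrays overlapped in neither population, although limma's adjusted p was 0.622 and 0.592. Cd34, a gate gene of L-GMP, averaged 9.76 in wild-type and 9.67 in knockout L-GMP, 8.74 in wild-type whole leukemia and 6.41 in knockout whole leukemia. The other gate genes did not separate the populations: L-GMP minus whole leukemia was 0.56 ± 0.47 in wild type and 1.14 ± 0.47 in knockout for Kit, -0.32 ± 0.17 and 0.08 ± 0.17 for Fcgr3, and -0.05 ± 0.29 and 0.46 ± 0.29 for Fcgr2b, with overlapping arrays each time. Some arrays stood apart. Knockout whole leukemia array 2 had an erythroid marker mean of 8.65, against 5.27 to 6.30 in the other 11 arrays. Summed linear intensities of the 7 measured erythroid markers ranged from 337 to 372 in wild-type and from 520 to 5639 in knockout whole leukemia, and from 354 to 424 in wild-type and from 433 to 687 in knockout L-GMP. These sums did not overlap between the genotypes in either population. Neutrophil marker sums (12 genes) were 5396 to 23034 and 12027 to 39077 in wild-type and knockout whole leukemia, and 1855 to 11543 and 5674 to 9396 in wild-type and knockout L-GMP. Monocyte and macrophage marker sums (10 genes) were 4900 to 7969 and 1925 to 3296 in wild-type and knockout whole leukemia, which did not overlap, and 2426 to 5734 and 1850 to 2455 in L-GMP. In knockout L-GMP array 2 the mean of 6 eosinophil, basophil and mast cell markers was 8.24, against 5.52 to 6.75 elsewhere. Their sums were 460 to 536 and 479 to 2986 in wild-type and knockout whole leukemia, and 577 to 759 and 616 to 5133 in wild-type and knockout L-GMP. The mean of 9 proliferation genes was 7.51 and 7.52 in knockout whole leukemia array 3 and knockout L-GMP array 3, against 8.43 to 9.18 elsewhere. The mean of 8 progenitor markers was highest of all arrays in knockout L-GMP array 2, at 11.2, and lowest in knockout whole leukemia array 2, at 9.06; their sums were 11246 to 11907 and 6012 to 18150 in wild-type and knockout whole leukemia, and 12238 to 16580 and 15925 to 22596 in L-GMP. Intensities have a background above 0, so no marker is at 0. The part of these markers in the results below was not tested.

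The enzymes also stood apart in some of these arrays. Knockout L-GMP array 2 had the highest of the 12 values for 20 of the 29 genes, whereas it was highest for 12.9% of all genes tested. Knockout whole leukemia array 2 had the lowest value for 15 of the 29 genes and for 20.3% of all genes. Wild-type L-GMP array 1 was lowest for 6 of the 29 genes and for 11.6% of all genes. The median deviation of the 29 genes from their own means was 0.41 in knockout L-GMP array 2, -0.34 in knockout whole leukemia array 2, -0.23 in wild-type L-GMP array 1 and -0.17 in knockout whole leukemia array 3. Idh2 spanned the widest range of all the enzymes, from 6.65 in knockout whole leukemia array 2 to 9.70 in knockout L-GMP array 2. The spread within a group differed too: the median SD of the 29 genes was 0.16 in wild-type whole leukemia, 0.23 in wild-type L-GMP, 0.30 in knockout whole leukemia and 0.30 in knockout L-GMP, where all genes had 0.13, 0.15, 0.19 and 0.16. All genes include dimmer ones, and the spread was not compared at matched brightness. Ogdh, the first subunit of the 2-oxoglutarate dehydrogenase complex, lay at 6.84 and 6.93 in the knockout arrays numbered 3 of the 2 populations and between 7.61 and 8.17 in the other 10 arrays. These were also the arrays of low proliferation marker level. Pcx, Pdhx, Slc25a10 and Pdp1 were dim, with means below 6 over the 12 arrays, and Pcx had the lowest mean, 5.37.

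**Figure D1:**
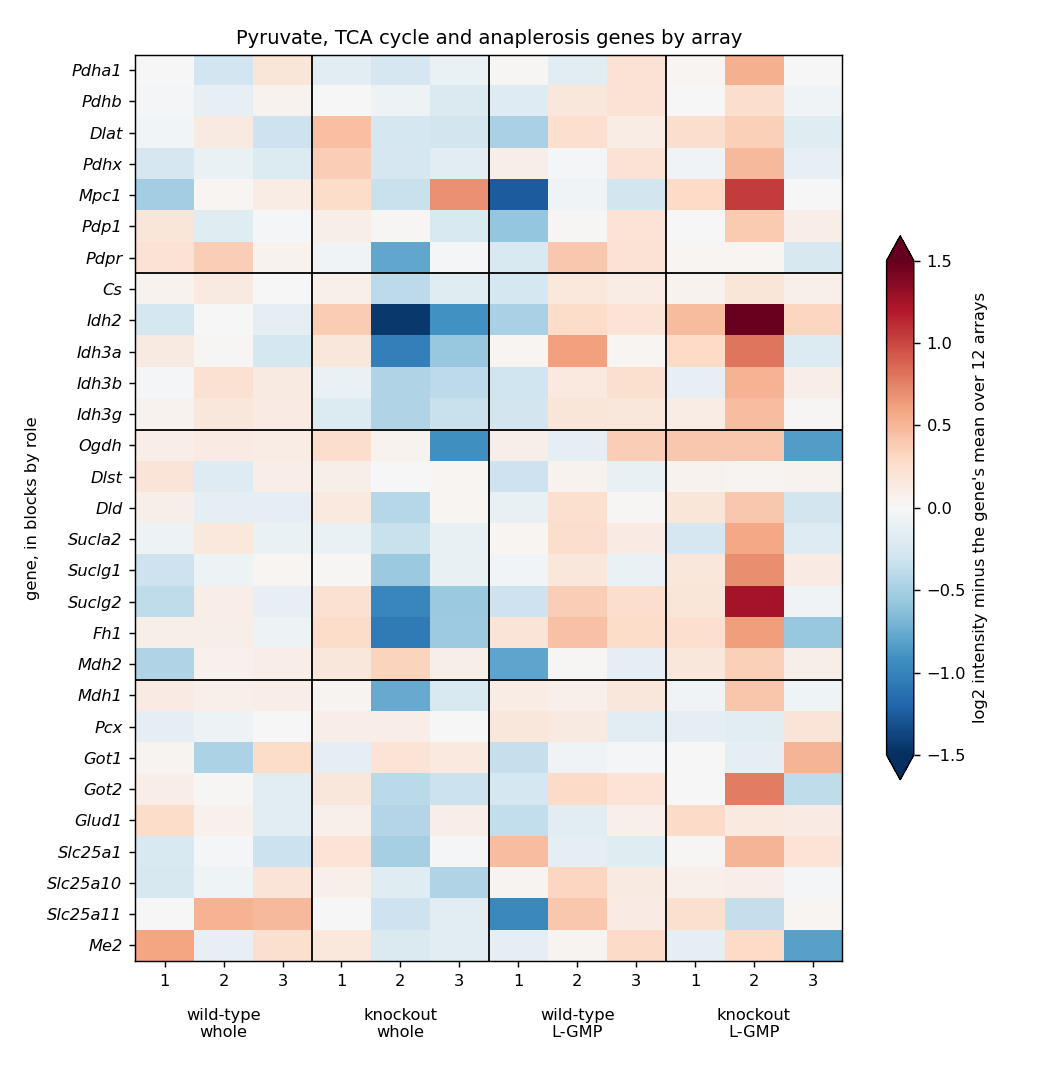
Heat map of the 29 measured genes (rows, in blocks by role) in the 12 arrays (columns, by group), coloured by the deviation of log2 intensity from the gene's own mean over all arrays. Knockout L-GMP array 2 is the highest array for 20 genes and knockout whole leukemia array 2 the lowest for 15.

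**Figure D2:**
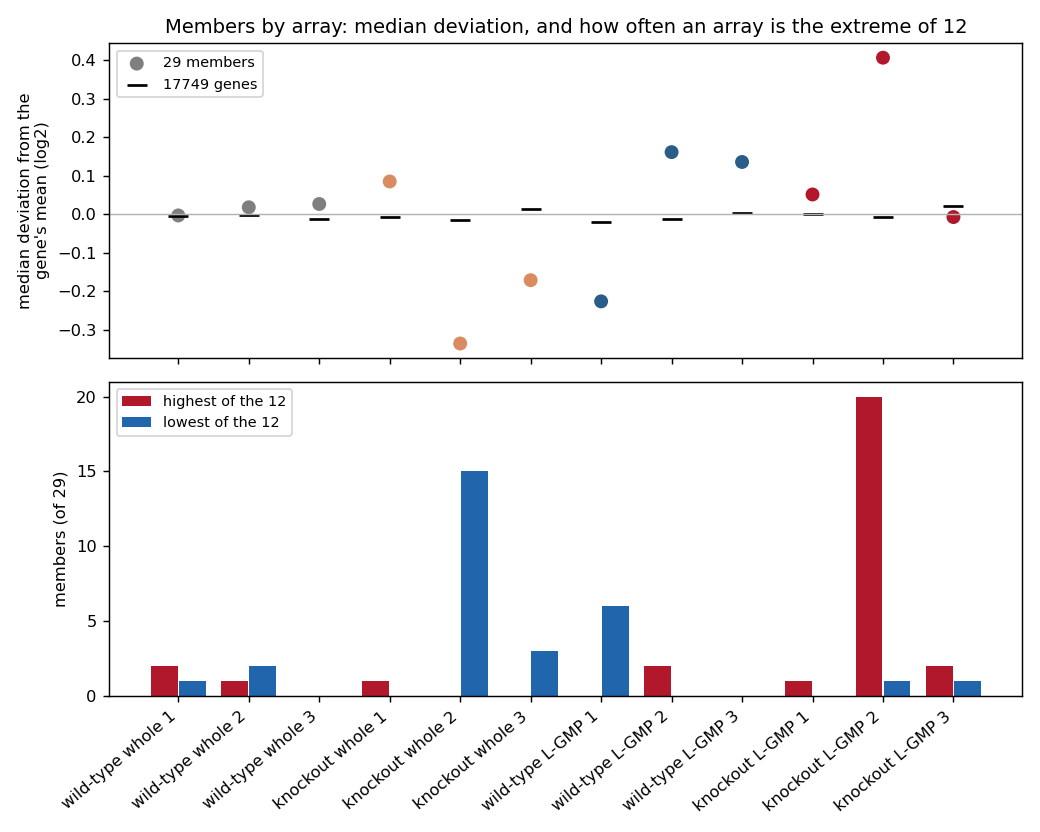
Upper panel: median deviation of the 29 genes (points, coloured by group) and of all genes tested (dashes) from each gene's mean over the 12 arrays, in log2 units, for each array. Lower panel: number of the 29 genes for which the array had the highest or the lowest of the 12 values, with 20 highest in knockout L-GMP array 2 and 15 lowest in knockout whole leukemia array 2.

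The first comparison asked whether loss of AMPK alters the enzymes in L-GMP. None of the 29 genes passed limma's test at an adjusted p of 0.05 over all genes tested (every member had an adjusted p of 1.00), and 0.00563% of all genes passed. At an unadjusted 0.05, 2 of the 29 genes passed, Mpc1 and Mdh2, both higher in the knockout, against 4.13% of all genes. The knockout mean was above the wild-type mean for 21 of the 29 genes with a median difference of 0.11, where 54.8% of all genes had a positive difference and their median was 0.02. This count rested on single arrays: it was 13 without knockout array 2, 13 without wild-type array 1 and 26 without knockout array 3. The median was -0.02 without either of the first pair of arrays, and 0.22 without knockout array 3. For 16 of the 29 genes the sign of the difference turned when some single array was left out. The arrays did not overlap between genotypes for 4 genes with higher knockout values, Mpc1, Idh2, Mdh2 and Glud1, and for none with lower ones, where 5.82% and 3.66% of all genes were separated in these directions.

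Among the genes of pyruvate entry, 6 of 7 had a positive difference in L-GMP, with a median of 0.16. Mpc1, the measured subunit of the pyruvate carrier, read 6.27, 7.46 and 7.23 in wild-type and 7.81, 8.56 and 7.51 in knockout L-GMP. All 3 knockout arrays lay above all 3 wild-type arrays, 1 of them only just, and wild-type array 1 was the lowest of all 12. The difference was 0.97 ± 0.38 (SE, n = 3 per group), a 1.96-fold ratio, with a 95% interval from 0.14 to 1.81. It was 0.62 without wild-type array 1 and 0.68 without knockout array 2. A second, dimmer probe set for Mpc1, with a mean of 5.97 over the 12 arrays against 7.51 for the one used, gave a difference of 0.39. Which of the 2 probe sets reads the Mpc1 locus was not tested. Pdpr, the regulatory subunit of pyruvate dehydrogenase phosphatase, read 6.10, 6.73 and 6.55 in wild-type and 6.35, 6.36 and 6.09 in knockout L-GMP, with overlapping arrays and a difference of -0.19 ± 0.22. Pdp1, the catalytic subunit of that phosphatase, had a difference of 0.29 ± 0.20, which was 0.05 without wild-type array 1. Within the dehydrogenase itself, the E1 subunits Pdha1 and Pdhb had differences of 0.16 ± 0.17 and 0.01 ± 0.13, the E2 subunit Dlat 0.19 ± 0.25 and the E3-binding protein Pdhx 0.01 ± 0.19.

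All 5 genes from citrate to 2-oxoglutarate had positive differences in L-GMP, with a median of 0.13. Idh2, the NADP-dependent mitochondrial isocitrate dehydrogenase, read 7.61, 8.38 and 8.31 in wild-type and 8.58, 9.70 and 8.43 in knockout L-GMP. The groups did not overlap, but the lowest knockout value was close to the highest wild-type value and knockout array 2 lay far above the rest. The difference was 0.80 ± 0.45, and 0.40 without knockout array 2. The NAD-dependent enzyme, built from Idh3a, Idh3b and Idh3g, had differences of 0.07 ± 0.32, 0.13 ± 0.19 and 0.17 ± 0.15. Without knockout array 2, Idh3a stood at -0.18 and Idh3b at -0.04. Citrate synthase, Cs, had a difference of 0.10 ± 0.14.

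Between 2-oxoglutarate and oxaloacetate, 5 of 8 genes had positive differences in L-GMP and the median was 0.11. Mdh2, the mitochondrial malate dehydrogenase, read 9.25, 10.07 and 9.91 in wild-type and 10.21, 10.40 and 10.13 in knockout L-GMP. The arrays did not overlap, and wild-type array 1 was the lowest of all 12. Its difference of 0.51 ± 0.21, a 1.42-fold ratio with an interval from 0.04 to 0.97, was 0.26 without wild-type array 1 and 0.43 without knockout array 2. Fumarase, Fh1, read 8.09, 8.33 and 8.16 in wild-type and 8.14, 8.52 and 7.32 in knockout L-GMP. Its difference of -0.20 ± 0.34 came with a low knockout array 3 and overlapping groups, and it was 0.14 without that array. Among the subunits of succinyl-CoA synthetase, the shared Suclg1 had a difference of 0.32 ± 0.19, the GTP-forming Suclg2 0.36 ± 0.37 and the ATP-forming Sucla2 -0.10 ± 0.20. Without knockout array 2 the value was 0.13 for Suclg1, -0.04 for Suclg2 and -0.36 for Sucla2. The components of the 2-oxoglutarate dehydrogenase complex had differences of -0.11 ± 0.36 for Ogdh, 0.17 ± 0.12 for Dlst and 0.06 ± 0.19 for Dld.

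Of the 9 anaplerotic and shuttle genes, 5 had positive differences in L-GMP, with a median of 0.05. Glud1, glutamate dehydrogenase, which feeds glutamate carbon into 2-oxoglutarate, read 8.84, 9.04 and 9.30 in wild-type and 9.50, 9.36 and 9.34 in knockout L-GMP. The knockout arrays lay within 0.2 of one another just above the highest wild-type array. The difference was 0.34 ± 0.17, with an interval from -0.04 to 0.72, and it ranged from 0.23 to 0.46 as single arrays were left out. Me2, the mitochondrial NAD-dependent malic enzyme, read 7.91, 8.09 and 8.33 in wild-type and 7.92, 8.35 and 7.23 in knockout L-GMP. The groups overlapped and its difference was -0.28 ± 0.27, or 0.02 without knockout array 3. Pyruvate carboxylase, Pcx, had a difference of -0.08 ± 0.12. The cytosolic and mitochondrial aspartate transaminases Got1 and Got2 had 0.26 ± 0.22 and 0.05 ± 0.27, and cytosolic malate dehydrogenase, Mdh1, had -0.02 ± 0.19. Among the carriers, the citrate carrier Slc25a1 had 0.20 ± 0.22, the dicarboxylate carrier Slc25a10 -0.11 ± 0.15 and the 2-oxoglutarate carrier Slc25a11 0.11 ± 0.31. Slc25a11 stood at -0.30 without wild-type array 1, and Got1 at 0.07 without knockout array 3.

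The same question was asked of whole leukemia. Again none of the 29 genes passed at an adjusted p of 0.05 in limma (0% of all genes passed), and members' adjusted p values ranged from 0.827 to 0.997. At an unadjusted 0.05, 3 of the 29 genes passed, Idh3g, Idh3b and Pdpr, all lower in the knockout, against 5.97% of all genes. The knockout mean was above the wild-type mean for 8 of the 29 genes, with a median difference of -0.15, where 49.6% of all genes had a positive difference and the median of all genes was -0.00. The count was 11 without knockout array 2, 11 without knockout array 3 and 4 without knockout array 1. The median was -0.07 without knockout array 2 and -0.23 without knockout array 1. For 11 of the 29 genes the sign turned when some single array was left out. Knockout values lay below all wild-type values for 5 genes, Idh3g, Idh3b, Pdpr, Mdh1 and Sucla2 (5.73% of all genes), and above them for 1 gene, Pcx (5.46%). In these bulk samples, fewer cells that express a gene and less RNA per cell cannot be told apart.

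All 5 genes from citrate to 2-oxoglutarate had negative differences in whole leukemia, with a median of -0.44. Idh3g, a regulatory subunit of the NAD-dependent enzyme, read 10.07, 10.18 and 10.14 in wild-type and 9.81, 9.57 and 9.68 in knockout whole leukemia. The wild-type arrays were tight and every knockout array lay below them. The difference was -0.45 ± 0.15, a ratio of 0.734 with an interval from -0.78 to -0.11 (limma adjusted p = 0.827), and it was -0.39 without knockout array 2. Idh3b, the other regulatory subunit, read 8.68, 8.93 and 8.84 in wild-type and 8.61, 8.25 and 8.31 in knockout whole leukemia. Its groups were separated by less than 0.1, and its difference of -0.43 ± 0.19 was -0.36 without knockout array 2. The catalytic subunit Idh3a had a difference of -0.44 ± 0.32, which was -0.16 without that array. Idh2 read 7.84, 8.10 and 7.96 in wild-type and 8.48, 6.65 and 7.19 in knockout whole leukemia. The knockout arrays surrounded the wild-type ones, with an SD of 0.94, and the difference was -0.53 ± 0.45, or -0.13 without knockout array 2 and -1.04 without knockout array 1.

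Among the genes of pyruvate entry, 3 of 7 had positive differences in whole leukemia, with a median of -0.04. Pdpr read 6.54, 6.70 and 6.37 in wild-type and 6.27, 5.55 and 6.30 in knockout whole leukemia. The groups did not overlap, but knockout array 2 was far below the other knockout arrays. The difference of -0.50 ± 0.22 was -0.25 without it. Mpc1 read 6.99, 7.54 and 7.63 in wild-type and 7.79, 7.18 and 8.20 in knockout whole leukemia. The groups overlapped, with a difference of 0.34 ± 0.38, or 0.10 without knockout array 3. Pdhx read 5.66, 5.81 and 5.71 in wild-type and 6.28, 5.66 and 5.74 in knockout whole leukemia, and 1 of the 3 knockout arrays made its difference of 0.17 ± 0.19, which was -0.02 without it.

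From 2-oxoglutarate to oxaloacetate, 2 of 8 genes had positive differences in whole leukemia and the median was -0.14. Mdh2 was one of them: it read 9.59, 10.10 and 10.14 in wild-type and 10.21, 10.37 and 10.13 in knockout whole leukemia. Array 1 of the wild type was low, the groups overlapped, and the difference was 0.29 ± 0.21, or 0.12 without wild-type array 1. Sucla2 read 7.11, 7.34 and 7.09 in wild-type and 7.08, 6.85 and 7.08 in knockout whole leukemia. The groups were separated by about the size of a rounding step, and the difference was -0.18 ± 0.20. Fh1 had a difference of -0.48 ± 0.34, with knockout arrays at 8.17, 6.83 and 7.35 against wild-type arrays at 7.98, 7.98 and 7.81, and the difference was -0.17 without knockout array 2.

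In the anaplerotic and shuttle genes, 3 of 9 had positive differences in whole leukemia and the median was -0.15. Mdh1 read 8.41, 8.36 and 8.39 in wild-type and 8.33, 7.54 and 8.07 in knockout whole leukemia. The wild-type values were nearly equal, and all knockout values were lower, 1 of them only just. The difference of -0.41 ± 0.19 was -0.19 without knockout array 2. Slc25a11, which exchanges 2-oxoglutarate for malate in the malate-aspartate shuttle, read 8.07, 8.59 and 8.56 in wild-type and 8.07, 7.76 and 7.92 in knockout whole leukemia. The highest knockout and lowest wild-type arrays met, and the difference was -0.49 ± 0.31. Pcx read 5.22, 5.29 and 5.36 in wild-type and 5.46, 5.47 and 5.37 in knockout whole leukemia. Every knockout array was above every wild-type array, but the probe set is dim and the difference was 0.14 ± 0.12. Glud1, separated in L-GMP, had a difference of -0.14 ± 0.17 here.

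**Figure D3:**
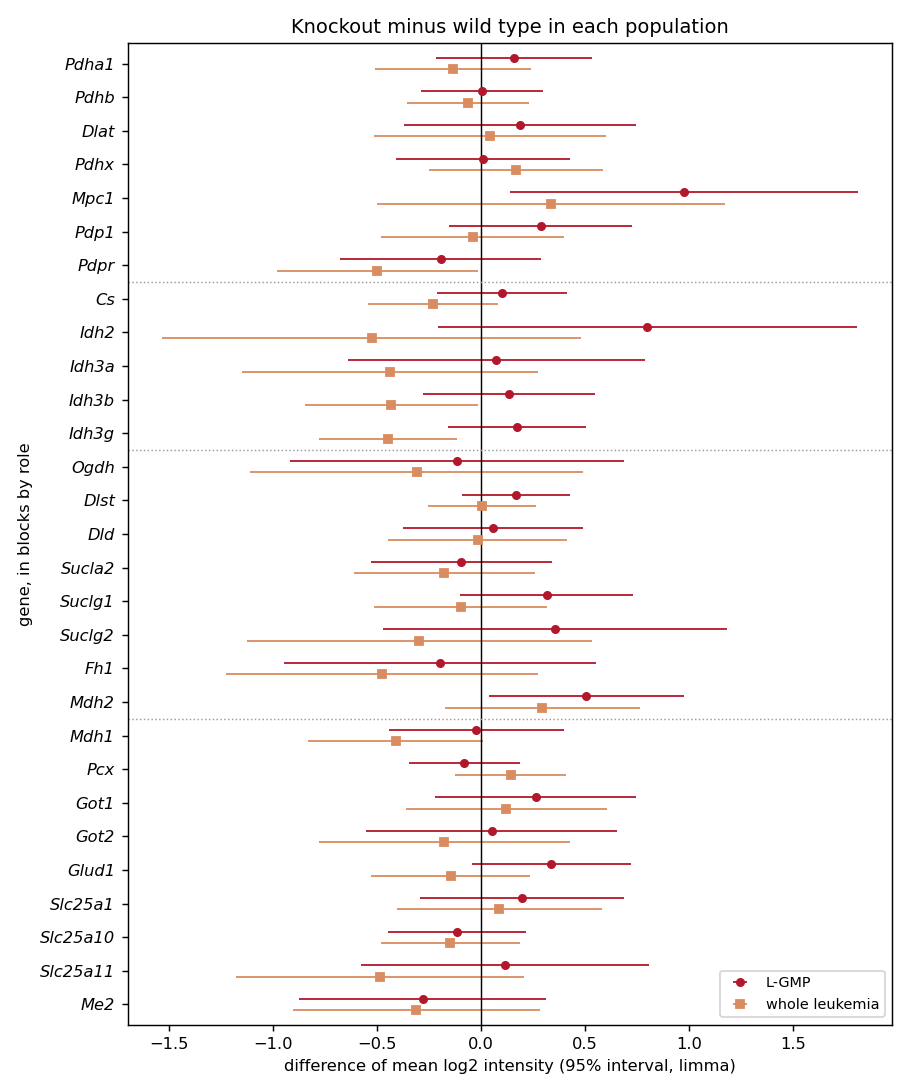
Difference of mean log2 intensity, knockout minus wild type, for each of the 29 genes in L-GMP and in whole leukemia, with 95% intervals from limma (n = 3 arrays per group). Mpc1 at 0.97 and Idh2 at 0.80 are the largest values in L-GMP, and no gene passed the test at an adjusted p of 0.05 in either population.

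The sorted fraction was then compared with whole leukemia in each genotype. In wild-type cells none of the 29 genes passed at an adjusted p of 0.05 in limma (0% of all genes) and none at an unadjusted 0.05 (2.5% of all genes). The L-GMP mean was above the whole leukemia mean for 16 of the 29 genes with a median of 0.03, where 48.8% of all genes had a positive difference. The count was 23 without wild-type L-GMP array 1 and 13 without wild-type L-GMP array 3, where the median was -0.03. Pdhx and Fh1 were the only genes with all L-GMP arrays higher (4.89% of all genes), and no gene had all of them lower (5.4%). Differences ran from -0.48 ± 0.31 for Slc25a11 to 0.28 ± 0.19 for Pdhx. Slc25a11 stood at -0.07 and Mpc1, at -0.40 ± 0.38 with all arrays, at -0.04 without wild-type L-GMP array 1. Taken as same-numbered pairs of wild-type arrays, L-GMP was above whole leukemia for 9, 22 and 21 of the 29 genes in pairs 1, 2 and 3, where 46.7%, 51.8% and 53.2% of all genes were. Mdh2, Mpc1 and Slc25a11 were lower in L-GMP in all 3 pairs, whereas Sucla2, Suclg2, Fh1, Pdha1 and Pdhx were higher in all 3. These 3 and 5 genes stand beside 15.3% and 15.8% of all genes that were lower or higher in every pair, so the shares were near those of all genes.

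In knockout cells the L-GMP mean was above the whole leukemia mean for 27 of the 29 genes, with a median of 0.24, where 52.4% of all genes had a positive difference and the median of all genes was 0.01. None of the 29 genes passed at an adjusted p of 0.05 in limma (0% of all genes), the lowest adjusted p being 0.671. At an unadjusted 0.05, 6 of the 29 genes passed, all higher in L-GMP, against 7.39% of all genes: Idh2, Idh3a, Idh3b, Idh3g, Suclg1 and Suclg2. All L-GMP arrays lay above all whole leukemia arrays for 4 genes, Idh3g, Suclg1, Pdha1 and Glud1 (5.49% of all genes), and below them for none (4.66%). The knockout whole leukemia arrays also enter the genotype comparison above, so the values of the 2 comparisons are not independent. As single arrays were left out, the number of the 29 genes above 0 ranged from 21 to 27 and the median from 0.16 to 0.36. With both number-2 knockout arrays left out, a choice made after seeing the data, 18 of the 29 genes were above 0 and the median was 0.07.

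Idh2 had the largest population difference in knockout cells, 1.46 ± 0.45, a 2.75-fold ratio with an interval from 0.46 to 2.47. Its arrays still overlapped, since knockout L-GMP array 3 at 8.43 lay just below knockout whole leukemia array 1 at 8.48. The difference was 1.06 without knockout L-GMP array 2, 1.07 without knockout whole leukemia array 2 and 1.98 without knockout whole leukemia array 1, where limma's adjusted p was 0.0741. Idh3g differed by 0.53 ± 0.15, with knockout L-GMP at 10.12, 10.48 and 10.03 and knockout whole leukemia at 9.81, 9.57 and 9.68. This gene was separated without relying on a single array: its difference was 0.39 without knockout L-GMP array 2 and 0.47 without knockout whole leukemia array 2. Suclg1 differed by 0.54 ± 0.19, with L-GMP at 8.18, 8.70 and 8.13 and whole leukemia at 8.03, 7.46 and 7.89. Suclg2 differed by 0.89 ± 0.37 and Idh3a by 0.77 ± 0.32, but these values were 0.50 and 0.52 without knockout L-GMP array 2. All 5 genes from citrate to 2-oxoglutarate had positive differences with a median of 0.53, compared with medians of 0.21 for pyruvate entry, 0.21 for 2-oxoglutarate to oxaloacetate and 0.24 for the anaplerotic and shuttle genes. Over both genotypes together the L-GMP mean was higher for 23 of the 29 genes, with a median of 0.15; 3 genes, Idh2, Idh3a and Suclg1, passed an unadjusted 0.05 (7.52% of all genes), none passed an adjusted 0.05 (0% of all genes), and the lowest adjusted p in limma was 0.661.

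**Figure D4:**
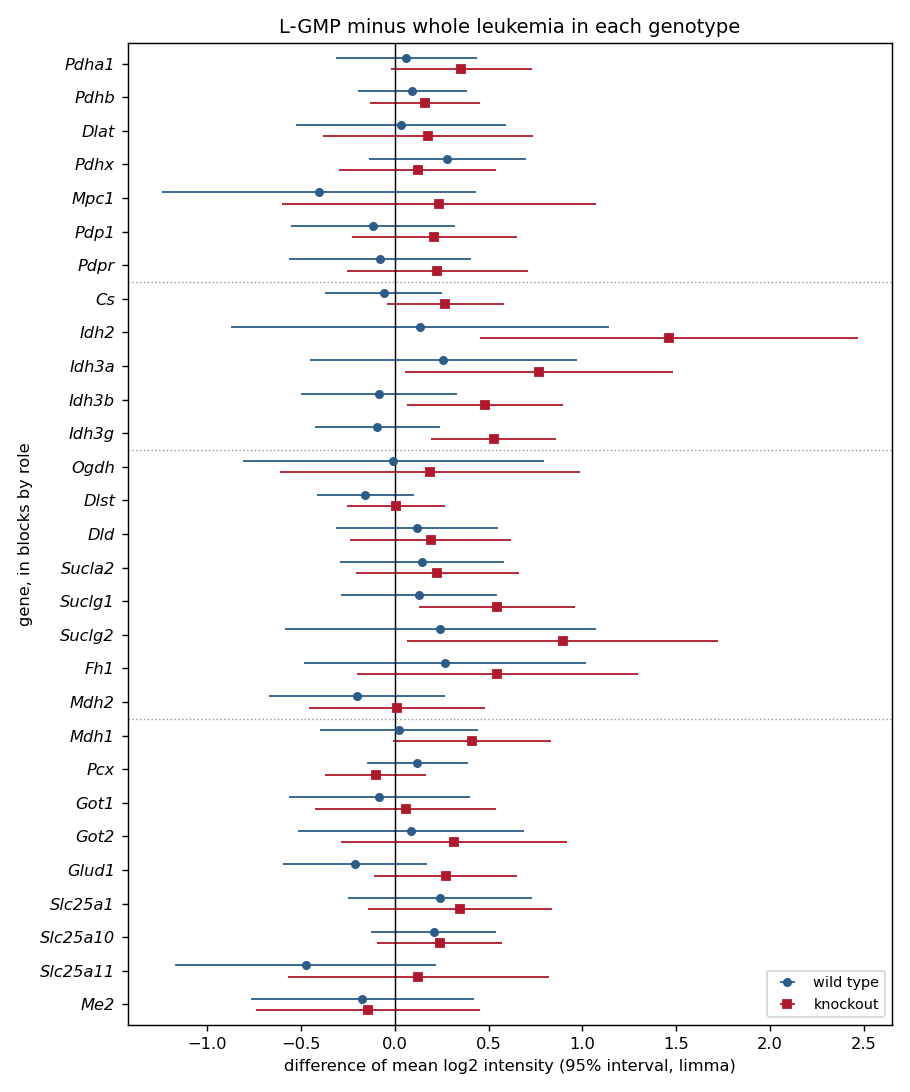
Difference of mean log2 intensity, L-GMP minus whole leukemia, for each of the 29 genes in wild-type and in knockout cells, with 95% intervals from limma (n = 3 arrays per group). In knockout cells 27 of the 29 points lie above 0, Idh2 at 1.46 being the largest, against 16 of the 29 in wild-type cells.

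Whether the genotype difference itself differed between the populations was tested as an interaction. None of the 29 genes passed at an adjusted p of 0.05 in limma (0% of all genes), each member had an adjusted p of 1.00, and 1 gene, Idh3g, passed an unadjusted 0.05 (2.06% of all genes). The interaction was above 0 for 27 of the 29 genes, with a median of 0.28, against 54.8% and a median of 0.02 for all genes. As single arrays were left out, the interaction was above 0 for 20 to 28 genes and the median ranged from 0.17 to 0.41. With both number-2 knockout arrays left out, a choice made after seeing the data, it was above 0 for 17 genes and the median was 0.01. Idh3g had an interaction of 0.62 ± 0.21 with an interval from 0.15 to 1.09, and values from 0.47 to 0.71 as single arrays were left out. Idh2 had 1.32 ± 0.64, Suclg2 0.65 ± 0.53, Mpc1 0.64 ± 0.53, Slc25a11 0.60 ± 0.44, Idh3b 0.57 ± 0.26 and Glud1 0.48 ± 0.24. Pcx at -0.22 ± 0.17 and Pdhx at -0.16 ± 0.27 were the exceptions in sign. Single arrays moved these values: Suclg2 was 0.26 and Idh2 0.92 without knockout L-GMP array 2, Mpc1 was 0.28 and Slc25a11 0.19 without wild-type L-GMP array 1, Glud1 was 0.31 without knockout whole leukemia array 2, and Pdhx was 0.04 without knockout whole leukemia array 1. The sign turned for 13 of the 29 genes as single arrays were left out.

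**Figure D5:**
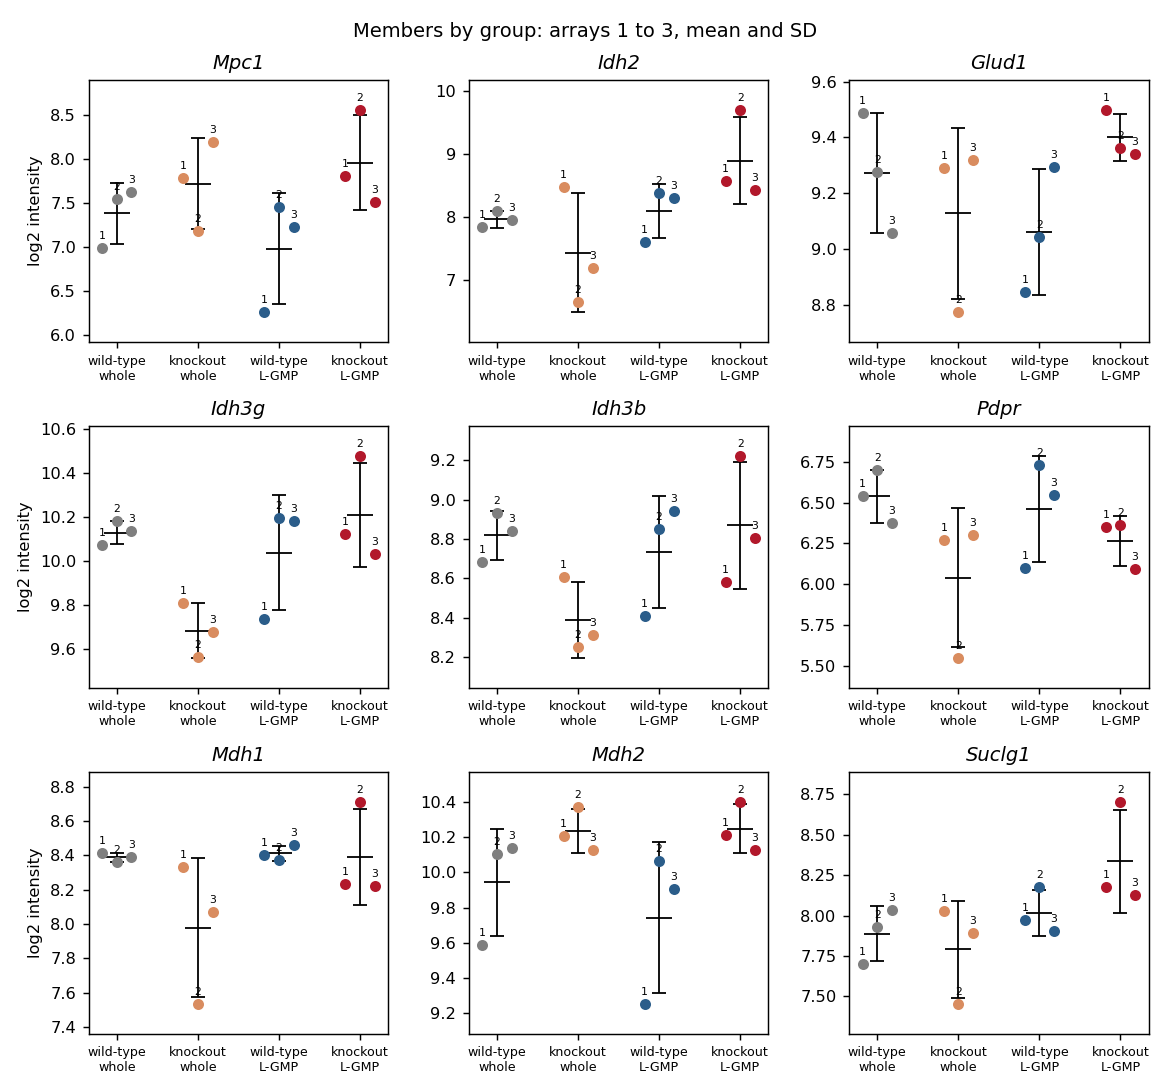
Log2 intensity in each array (points, numbered 1 to 3) with the group mean and SD (horizontal bar and whiskers; each panel has its own axis, which does not start at 0) for Mpc1, Idh2, Glud1, Idh3g, Idh3b, Pdpr, Mdh1, Mdh2 and Suclg1 in the 4 groups (n = 3 each). Idh3g in knockout whole leukemia, between 9.57 and 9.81, lies below all wild-type whole leukemia arrays, and Idh2 has its widest spread in the same group.

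Pairs of enzymes that catalyse one reaction in different compartments, or with a different nucleotide, were set against each other within each array, as the log2 value of one probe set minus that of the other. Only changes in this value between groups can be read, not its size. In whole leukemia, Mdh2 minus Mdh1 was 1.55 ± 0.33 (SD, n = 3) in wild type and 2.26 ± 0.51 in knockout, a difference of 0.70 with no overlap of the arrays. The knockout arrays read 1.87, 2.84 and 2.06, and the difference was 0.41 without array 2. The exact two-sided permutation test gave p = 0.1, the smallest that 3 against 3 arrays allows, and 0.6 after adjustment over 12 comparisons. In L-GMP the same value was 1.33 ± 0.43 in wild type and 1.86 ± 0.15 in knockout, with an exact permutation p of 0.2, and the difference of 0.53 was 0.29 without wild-type array 1. Suclg2 minus Sucla2 was 0.62 ± 0.27 and 1.08 ± 0.27 in wild-type and knockout L-GMP, again with an exact permutation p of 0.2. Suclg2 minus Sucla2 differed by 0.45, or 0.30 without wild-type array 1. In whole leukemia its genotype difference was -0.12 (exact permutation p = 0.8), or 0.08 without knockout array 2. Between the populations in knockout cells it differed by 0.67 (exact permutation p = 0.2). Got2 minus Got1 differed by -0.21 between the genotypes in L-GMP, with an exact permutation p of 0.7, and by 0.24 without knockout array 3. The remaining comparisons of these pairs had exact permutation p values from 0.3 to 0.7.

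For 3 genes a second probe set of the same symbol gave another reading. That of Suclg2 gave genotype differences of 0.23 in L-GMP and -0.12 in whole leukemia, where the one used gave 0.36 and -0.30. The second probe set of Got2 gave 0.06 and 0.03, against 0.05 and -0.18, so the sign differed in whole leukemia. These second probe sets are given as values and were not tested.

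Other genes of the same pathways were taken from a list of 40, of which 35 could be tested: the remaining cycle enzymes, the kinases that inhibit pyruvate dehydrogenase, glutamine and acetate enzymes, lipoate enzymes and mitochondrial sirtuins. None passed an adjusted p of 0.05 in any of the 6 comparisons. Of all genes, 0.00563% passed for genotype in L-GMP and 0% in the other comparisons. The counts below are given with all arrays only. In L-GMP 25 of the 35 had a positive genotype difference (54.8% of all genes), with a median of 0.05. In whole leukemia 10 of the 35 had one (49.6% of all genes), with a median of -0.04. The 3 of lowest p in L-GMP were Sirt5, a mitochondrial desuccinylase, at 0.43 ± 0.17, Sdhb, the iron-sulfur subunit of succinate dehydrogenase, at -0.22, and Acly, which cleaves citrate in the cytosol, at 0.28. In whole leukemia they were Pdp2, a second pyruvate dehydrogenase phosphatase, at -0.50, Sdhb at -0.28 and the cytosolic aconitase Aco1 at -0.29. Between the populations, 19 of the 35 were above 0 in wild type (48.8% of all genes). Idh1 at -0.51, Lipt1 at 0.12 and Pkm at -0.12 had the lowest p. In knockout cells 31 of the 35 were above 0 (52.4% of all genes), with a median of 0.13. These were led by Sirt5 at 0.42, Sdhd at 0.27 and Pdk1, an inhibitory kinase of pyruvate dehydrogenase, at 0.77. Over both genotypes Pdk1 at 0.55, Slc25a13 at 0.23 and Sirt5 at 0.21 had the lowest p. The interaction was above 0 for 28 of the 35 (54.8% of all genes), with Sirt5 at 0.43, Idh1 at 0.69 and Pkm at 0.24 of lowest p.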

How the data were processed

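The deposited table holds linear intensities of 33794 probe sets on 12 one-colour arrays, normalized by the authors; the method is not given in the sources used here, and array medians lay between 36.9 and 39.3. Values were taken as log2 with no pseudocount. Of the probe sets, 23521 have 1 symbol in the array's annotation, 1814 have several and 8459 are not listed. One probe set per gene was kept, the brightest 1-symbol set, and 4431 genes below the 25th percentile (log2 4.72) were left out. limma 3.58.1 (R 4.3.3) fitted 4 group means over all arrays, with Benjamini-Hochberg adjustment over 17749 genes, and was tested on simulated data. The half-width of a genotype difference's 95% interval had a median of 0.34. The members, gene lists and marker lists were chosen with earlier results of these data known. Values in each array are given for the 3 genes of largest genotype difference in either direction and for genes whose arrays did not overlap. Same-numbered wild-type arrays of the 2 populations deviated together (r = 0.36, 0.62 and 0.30), a pairing read from the data. Other alternatives were normalization, centring, filters, a pseudocount, array weights, variance models, a replicate block and leaving out arrays.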

Additional observations from a re-analysis of the deposited data

How the results depend on the processing

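No member passed an adjusted p of 0.05 in any of the 25 alternatives, of which 23 were planned and 2 were chosen after seeing the data; the lowest adjusted p in limma was 0.0741. As single arrays were left out, the number of genes with a positive genotype difference ranged from 13 to 26 in L-GMP and from 4 to 11 in whole leukemia. With both number-2 knockout arrays left out (an added alternative) it was 13 in L-GMP, the interaction was above 0 for 17 genes and its median was 0.014. Of 174 member differences, 36 then changed sign, against 6 under quantile normalization, 18 with array weights and 0 without the filter on dim genes. The other added alternative left out knockout whole leukemia array 2 and knockout L-GMP array 3, and 15 differences changed sign. The cause was not tested. Leaving out arrays for the within-array enzyme pairs was also chosen after seeing the data. Signal over background limits the dim genes, and 3 arrays per group limit the rest. The shares of all genes also depend on the filter on dim genes. With the lowest 50% left out, 54.4% of all genes had a positive genotype difference in L-GMP and 45.1% in whole leukemia. Between the populations 50.1% were above 0 in wild type and 56.8% in knockout, and 58.0% were for the interaction.

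With the replicate number as a block, 0 members passed and the lowest adjusted p in limma was 0.609. As a random block within genotype (consensus correlation 0.15) it was 0.482, with 0 passing, so neither block changed a call. The random block used a single correlation for both genotypes, and a pairing of the wild-type arrays alone was not tested. Knockout arrays with the same number correlated at 0.13, 0.09 and 0.43, and those with different numbers at -0.38 to 0.19. Since 1 value was under 0.1, same-numbered knockout arrays were not described as pairs above, although both blocks group them by number. Whether array 3 of both populations shares a source was not tested.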

Other observations

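Dld, the dihydrolipoamide dehydrogenase of both cycle dehydrogenase complexes, also serves the branched-chain 2-oxoacid dehydrogenase and the glycine cleavage system. The 7 other genes of those complexes were described as well, with all arrays only. None passed an adjusted p of 0.05 in limma. Of all genes, 0.00563% passed for genotype in L-GMP and 0% in the other comparisons. In L-GMP 3 of the 7 had a positive genotype difference (54.8% of all genes), with a median of -0.01. In whole leukemia 1 of the 7 had one (49.6% of all genes), with a median of -0.17. Gcsh, the lipoate carrier of glycine cleavage, was that one, at 6.41 ± 0.11 (SD, n = 3) in wild-type and 6.64 ± 0.24 in knockout whole leukemia. Bckdk, the kinase that inhibits the branched-chain complex, was at 8.21 ± 0.44 and 7.77 ± 0.25. Between the populations, L-GMP was higher for 7 of the 7 in wild-type cells (48.8% of all genes), with a median of 0.06. In knockout cells it was higher for 6 of the 7 (52.4% of all genes), with a median of 0.27.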
